A study of Ogataea parapolymorpha with 2 samples.

Results

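The genes described here encode subunits of the MCM helicase, the ring-shaped motor that unwinds DNA at replication forks, in the methylotrophic yeast Ogataea parapolymorpha (Hansenula polymorpha in the labels). They were chosen as the rows of the deposited read count table whose orthologous group is COG1241, and 6 of 5408 rows carried it. The group was picked with earlier results of these data in view, among them the folds of its leading genes, so the folds of the 6 genes are a description and no test was made on them. In eukaryotes the ring is built from related subunits named Mcm2 to Mcm7, each from its own gene. The rings are loaded onto replication origins in G1 phase by the origin recognition complex with Cdc6 and Cdt1, and are switched on in S phase when Cdc45, GINS and the Dbf4-dependent kinase act on them. In budding yeast the transcripts of these genes are periodic in the cell cycle.

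RNA was sequenced from strain DL-1 with a leu- genotype (DL1-L), a background that both groups share. The caffeine-treated library (1 sample) came from cells that were given 20 mM caffeine for 2 h, and the untreated library (1 sample) from the other part of the same culture, harvested at the split. The culture had grown in YPD at 37 °C to an OD600 of 1.0. Caffeine is a purine analogue that inhibits TOR kinase in budding yeast and is used to stress the yeast cell wall. The labels name no untreated part held for the same time, so caffeine and time in culture cannot be told apart. The RNA came from whole cultures, so more cells at a cell cycle stage and more RNA per cell cannot be told apart either. The libraries held 17789838 caffeine-treated and 19184978 untreated reads. With 1 library per group there is no replicate check, no test between conditions was possible. Every interval in parentheses is an exact 95% interval of the read counts alone, and leaves out the variation between cultures.

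The tables name genes by locus tag, their product column is empty, and the RefSeq gene table adds no symbols. Which locus tag encodes which of the Mcm2 to Mcm7 subunits is therefore not stated here. The 6 genes are listed as 2172 to 2778 bases long. All 6 passed the filter of 10 CPM (reads at a common library size) in at least 1 library, as did 4861 of 5325 protein-coding genes.

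All 6 MCM genes had more reads after scaling in the caffeine-treated than in the untreated library, and their folds ran between 1.32 and 3.16. The same direction was seen in 51.1% of the 4861 genes that passed the filter. Summed over the 6 genes, 17648 caffeine-treated and 7976 untreated reads were counted. That was 0.0992% of the caffeine-treated reads (0.0978 to 0.101, Clopper-Pearson) and 0.0416% of the untreated reads (0.0407 to 0.0425). With the libraries scaled by TMM (trimmed mean of M values), the summed reads were 2.05-fold higher with caffeine (2.00 to 2.11).

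HPODL_00647 had 4032 reads in the caffeine-treated library, against 1183 in the untreated library. Its TMM-scaled fold was 3.16, a log2 fold of 1.66 (1.57 to 1.75). HPODL_04666, the longest of the genes, had 3840 caffeine-treated and 1376 untreated reads, a log2 fold of 1.37 (1.28 to 1.46). These genes stood above the other 4, and their intervals did not overlap with each other or with the rest.

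HPODL_01197 had 4059 caffeine-treated and 1842 untreated reads, a log2 fold of 1.03 (0.95 to 1.11). HPODL_03794, the shortest and least read of the genes, had 761 caffeine-treated and 371 untreated reads, a log2 fold of 0.93 (0.75 to 1.11). The intervals of both genes span the 2-fold line, a log2 fold of 1, so counting error alone leaves their side of it unsettled. They are also 1 of the 2 pairs, out of 15, whose intervals overlap.

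HPODL_03181 had 2180 caffeine-treated and 1256 untreated reads, a log2 fold of 0.69 (0.59 to 0.79). Its interval overlapped with that of HPODL_03794 but with no other. HPODL_04438, which had the most reads of the 6 genes in the untreated library, had 2776 caffeine-treated and 1948 untreated reads. It stood lowest, with a log2 fold of 0.40 (0.32 to 0.49), or 1.32-fold.

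The highest and the lowest fold of the group differed by 1.26 on the log2 scale, a ratio of 2.39 between HPODL_00647 and HPODL_04438. Between these libraries the 6 folds shared a direction, in a group picked with the folds of its leading genes in view. In 13 of 15 gene pairs the counting intervals of the folds did not overlap. Those intervals leave out the variation between cultures, so whether the subunits differ in size of change was not tested. The median log2 fold of the 6 genes was 0.98, and that of the 4861 compared genes was 0.01.

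By a size rule of 2-fold, 3 of the 6 MCM genes were higher with caffeine and 0 were lower. Of all 4861 compared genes 7.12% passed the rule as higher and 5.27% as lower. The group was chosen from this same contrast, so nothing is read from that difference. Of all compared genes, 2.47% had a higher log2 fold than HPODL_00647, 6.71% a higher one than HPODL_01197, and 24.5% a higher one than HPODL_04438.

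Scaling by library totals instead of TMM added 0.22 to every log2 fold. HPODL_03794 then stood at 1.15, past 2-fold, and 4 of the 6 genes passed, beside 11.6% of compared genes higher and 3.6% lower. With 5 CPM added to both libraries, HPODL_01197 came just under the line, at a log2 fold of 0.996, and 2 genes passed, beside 5.02% of compared genes higher and 4.32% lower. All 6 log2 folds were above 0 under each scaling and filter tried.

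**Figure D1:**
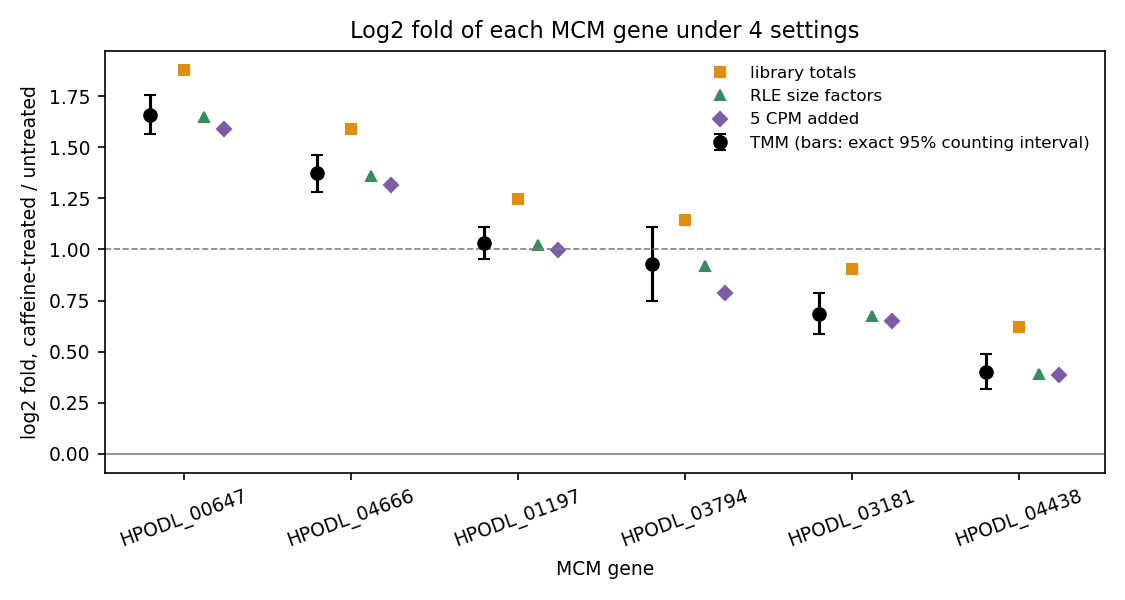
Log2 fold of caffeine-treated over untreated (vertical axis) for each MCM gene (horizontal axis). Black points are TMM-scaled with exact 95% counting intervals, and coloured marks are 3 other settings. HPODL_00647 and HPODL_04666 lie above the dashed 2-fold line under all 4 settings, while HPODL_01197 and HPODL_03794 lie above or below it depending on the setting.

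Levels of different genes were compared per length, on the authors' deposited RPKM scale (reads per length and per library total). In the caffeine-treated library the order was HPODL_01197 at 100.5 RPKM (97.5 to 103.7), HPODL_00647 at 90.1 (87.3 to 92.9) and HPODL_04666 at 82.8 (80.2 to 85.5). HPODL_04438 followed at 67.1 RPKM (64.6 to 69.6), HPODL_03181 at 51.9 (49.8 to 54.2) and HPODL_03794 at 21.4 (19.9 to 23.0). No neighbours in this order had overlapping counting intervals.

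In the untreated library HPODL_04438 led at 43.7 RPKM (41.8 to 45.7), with HPODL_01197 at 42.4 (40.5 to 44.4), and their intervals overlapped. HPODL_03181 at 27.8 RPKM (26.3 to 29.4) and HPODL_04666 at 27.6 (26.1 to 29.1) could not be told apart by counting error either. HPODL_00647 came next at 24.6 RPKM (23.2 to 26.0), and HPODL_03794 was last at 9.69 (8.73 to 10.7).

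The order of the subunits thus differed between the libraries. HPODL_00647 ranked 2 of 6 in the caffeine-treated library and 5 of 6 in the untreated library, while HPODL_04438 ranked 4 with caffeine and 1 without. HPODL_03794 was the lowest of the group in both libraries. The gene above it had 2.43 times its RPKM with caffeine and 2.53 times without.

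The share of the group's summed RPKM differed between the libraries for some genes and hardly for others. HPODL_00647 made up 21.8% of 413.9 RPKM in the caffeine-treated library, against 14.0% of 175.7 RPKM in the untreated library. For HPODL_04438 the shares were 16.2% with caffeine and 24.9% without. HPODL_01197 kept nearly the same part of the group, with 24.3% in the caffeine-treated and 24.1% in the untreated library. In these units the highest gene of the group was 4.70 times the lowest with caffeine and 4.51 times without. The protein ring holds its subunits in equal number, as background, but protein was not measured here.

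The group's median level was 75.0 RPKM in the caffeine-treated library and 27.7 RPKM in the untreated library. The median compared gene was at 71.2 RPKM with caffeine and at 59.8 RPKM without. HPODL_01197 was above 62.8% of compared genes in the caffeine-treated library and above 37.3% in the untreated library. HPODL_00647 was above 59.0% with caffeine and above 19.7% without. HPODL_03794 was above 9.34% of compared genes with caffeine and above 3.89% without.

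**Figure D2:**
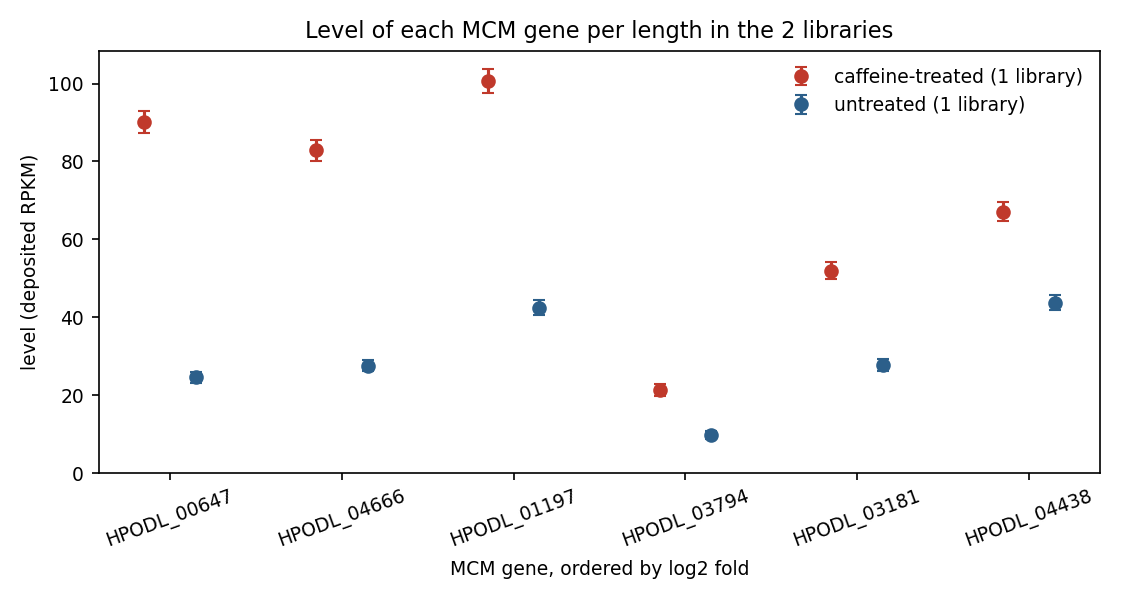
Level of each MCM gene in deposited RPKM (vertical axis, from 0), with genes ordered by log2 fold (horizontal axis). Points are single libraries, caffeine-treated left of untreated, with exact 95% Poisson intervals of the counts. Every caffeine-treated point lies above its untreated partner, and HPODL_03794 is the lowest gene in both libraries.

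Other genes of DNA replication were taken from 23 orthologous groups sorted by role, which hold 39 genes, 37 of them compared. This replication list is not the whole machinery. It was drawn by COG only and holds no group for Cdc45, GINS or Cdt1. By the 2-fold rule 0 of the 37 were higher and 0 lower, beside 7.12% and 5.27% of all compared genes. Their median log2 fold was -0.09, or 0.13 with library totals, with 17 genes above 0 and 20 below, or 21 above 0 with library totals. Of all compared genes 51.1% were above 0, or 3308 of 4861 with library totals. The highest of the 37 lay below 4 of the 6 MCM genes, and 8 of the 37 had a log2 fold above that of HPODL_04438, the lowest MCM gene. No test of the difference between the lists was made.

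Among the factors that load the helicase, the Orc2-type subunit of the origin recognition complex (COG5575, HPODL_00033) stood highest of the whole replication list. It had 1111 caffeine-treated and 618 untreated reads, a log2 fold of 0.74 (0.59 to 0.88). Of the 3 genes of the Orc1 and Cdc6 type (COG1474), those that were compared went either way. HPODL_01313 had 260 caffeine-treated and 333 untreated reads, a log2 fold of -0.47 (-0.71 to -0.23). HPODL_01596 stood at 0.11 (0.01 to 0.21). HPODL_01314, with 133 caffeine-treated and 99 untreated reads, did not pass the filter and stood at 0.32 (-0.07 to 0.71). The Dbf4-type gene (COG5067, HPODL_04950), whose product activates the kinase that phosphorylates the MCM ring, stood at -0.39 (-0.48 to -0.30).

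Of 8 polymerase and primase genes 3 were above 0 and 5 below, or 4 above 0 with library totals. Beside them, 51.1% of all compared genes were above 0, or 3308 of 4861 with library totals. The small primase subunit (COG1467, HPODL_00382), which makes the RNA primer, was highest at 0.55 (0.43 to 0.68). A family B DNA polymerase (COG0417, HPODL_02497) was lowest at -0.72 (-0.79 to -0.65), with 2607 caffeine-treated and 3988 untreated reads. The large primase subunit (COG2219, HPODL_03502), the partner of the small one, stood at -0.35 (-0.47 to -0.24).

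Of the sliding clamp and its loader, 3 of 8 genes were above 0, beside 51.1% of all compared genes. The clamp gene PCNA (COG0592, HPODL_04911), which tethers the polymerases to DNA, had 1650 caffeine-treated and 2500 untreated reads. Its log2 fold was -0.71 (-0.80 to -0.62). The clamp loader ATPases (COG0470) ranged between -0.76 (-0.91 to -0.61) for HPODL_04352 and 0.24 (0.10 to 0.38) for HPODL_00187.

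The single-strand binding protein RPA coats the DNA that the helicase opens. Its large subunit (COG1599, HPODL_00221) stood at 0.46 (0.39 to 0.53) and its middle subunit (COG5235, HPODL_03073) at 0.03 (-0.07 to 0.14). For flap removal and ligation, HPODL_01544 of the flap endonuclease group (COG0258) was highest at 0.45 (0.25 to 0.65). A DNA ligase (COG1793, HPODL_04991) was lowest there at -0.63 (-0.79 to -0.47), while the other ligase gene, HPODL_04963, stood at 0.27 (0.12 to 0.43). Among topoisomerases, which release the twist ahead of the fork, the type IB gene (COG3569, HPODL_01299) stood at 0.58 (0.50 to 0.66) and a type II gene (COG0187, HPODL_02631) at -0.19 (-0.24 to -0.14).

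The enzymes of deoxynucleotide supply had the lowest median of the replication roles, -0.53 over 5 compared genes, or -0.31 with library totals. The dUTPase gene (COG0756, HPODL_03683) had 252 caffeine-treated and 462 untreated reads, a log2 fold of -0.98 (-1.21 to -0.76). At the other end, the small subunit of ribonucleotide reductase (COG0208, HPODL_03249) stood at 0.36 (0.32 to 0.40).

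**Figure D3:**
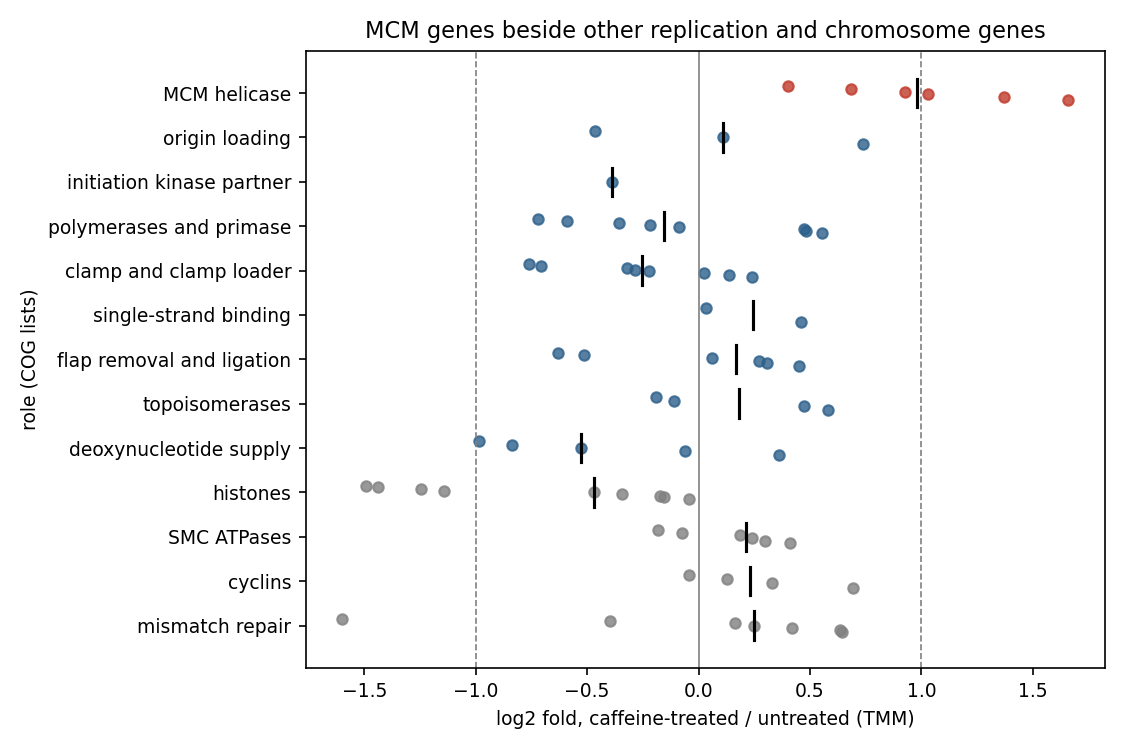
Log2 fold of caffeine-treated over untreated, TMM-scaled (horizontal axis), by role (vertical axis). Points are compared genes, black bars are medians, and dashed lines mark 2-fold. The 6 MCM genes lie between 0.40 and 1.66, and no gene of the other replication roles (blue) reaches either dashed line.

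Per length, the MCM genes lay within the range of the compared genes of the replication list. That range was 15.3 to 660.2 RPKM with caffeine and 9.65 to 444.4 RPKM without. The median of the 37 other genes was 42.5 RPKM in the caffeine-treated library and 39.5 RPKM in the untreated library, beside the 75.0 and 27.7 RPKM of the MCM group. The MCM median was thus above theirs with caffeine and below it without, which restates the folds in view when the group was picked. PCNA was at 152.7 RPKM with caffeine and 216.0 without, and the large RPA subunit at 155.2 and 97.3 RPKM. HPODL_00033, the Orc2-type gene, was at 42.0 RPKM with caffeine and 21.7 without.

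**Figure D4:**
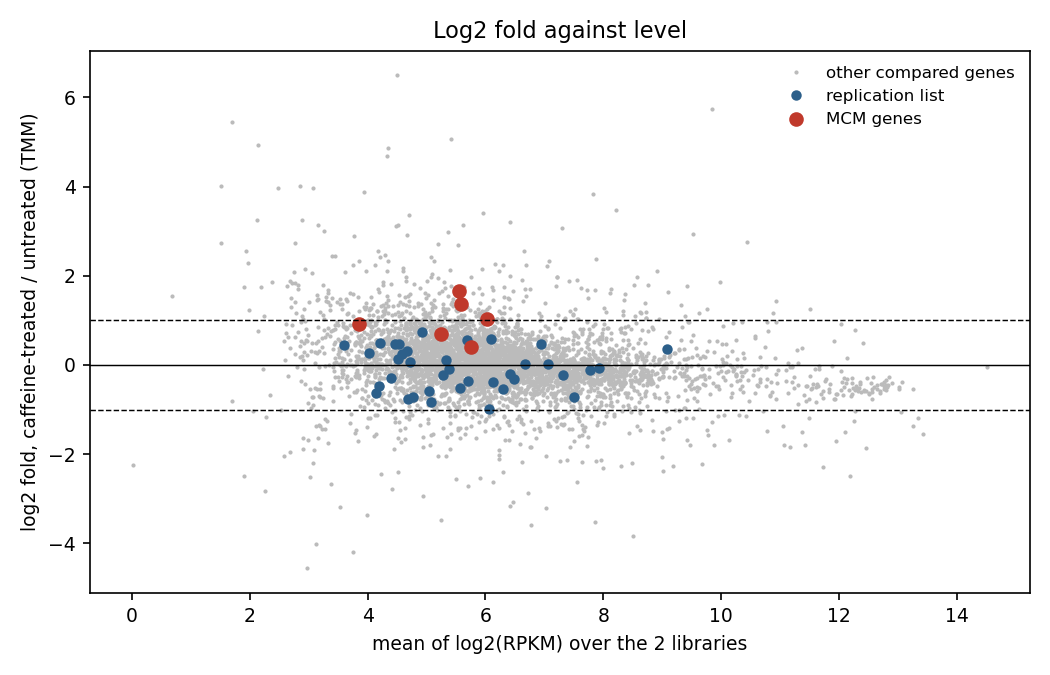
Log2 fold of caffeine-treated over untreated, TMM-scaled (vertical axis), against the mean log2 RPKM over the 2 libraries (horizontal axis). Grey points are compared genes listed above 0 RPKM in both libraries, blue the replication list and red the MCM genes. The 6 red points all lie above 0, as do 17 of 37 replication genes and 51.1% of all compared genes. With library totals 21 replication genes and 3308 of 4861 compared genes do.

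Genes of chromosome structure and the cell cycle were read beside the MCM genes. Core histone transcripts in budding yeast peak in S phase. Of 9 compared genes of the groups that hold the core histones (COG2036 and COG5262), 9 were below 0, beside 2379 of 4861 compared genes. At least 2-fold lower were 4 of the 9, beside 5.27% of all compared genes. A COG can hold several proteins, and which of the 9 encode core histones was not determined. With library totals 3 of the 9 turned positive and 3 stayed at least 2-fold lower, beside 3.6% of compared genes, with HPODL_01325 at -0.92 in place of -1.14. HPODL_01324 of the H3 and H4 group had 4766 caffeine-treated and 12415 untreated reads, a log2 fold of -1.49 (-1.54 to -1.44). HPODL_01931 was highest of the compared genes of that group at -0.04 (-0.21 to 0.12). HPODL_02370 of the same group, with 118 caffeine-treated and 101 untreated reads, did not pass the filter. It stood at 0.12 (-0.28 to 0.51). Genes of the H2A group (COG5262) ranged between -1.44 (-1.51 to -1.37) for HPODL_00514 and -0.15 (-0.27 to -0.04) for HPODL_03574.

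The 4 cyclin genes (COG5024) ranged between -0.04 (-0.11 to 0.03) for HPODL_00472 and 0.70 (0.59 to 0.80) for HPODL_00367, all within 2-fold. SMC ATPases (COG1196), which include the arms of cohesin and condensin, lay between -0.18 (-0.27 to -0.09) for HPODL_02979 and 0.41 (0.34 to 0.48) for HPODL_00682. Cell cycle position was not measured, and the part of any shift in it in the MCM values was not tested.

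Mismatch repair genes were spread. MutS-type genes (COG0249) lay between -0.40 (-0.45 to -0.34) for HPODL_04045 and 0.63 (0.52 to 0.74) for HPODL_02899. MutL-type genes (COG0323) lay between -1.60 (-1.78 to -1.42) for HPODL_05041 and 0.65 (0.48 to 0.81) for HPODL_00567.

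The authors' table places all 6 MCM genes in category L, replication, recombination and repair. Of 165 other compared genes in that category 8 (4.85%) passed the 2-fold rule as higher and 3 (1.82%) as lower, beside 7.12% and 5.27% of all compared genes. With library totals 16 of the 165 were higher and 2 lower, beside 11.6% and 3.6%. Their median log2 fold was 0.12, or 0.33 with library totals. The 2 genes given next were picked after their values were seen. Closest to the leading MCM gene was a UvrD-type helicase (COG0210, HPODL_04429) with 1742 caffeine-treated and 564 untreated reads, a log2 fold of 1.52 (1.38 to 1.66). Lowest was a gene of the group that holds the Spo11 type (COG1697, HPODL_00346), known for meiotic DNA breaks. It had 92 caffeine-treated and 875 untreated reads, a log2 fold of -3.36 (-3.68 to -3.05).

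Among 135 orthologous groups with at least 4 compared genes, 10 had every gene above 0, COG1241 among them, and 7 had a higher median than COG1241. Those counts come from the contrast that chose the group.

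Genes with the most similar level were sought among 1772 compared genes with a COG of known function, by the distance of log2(RPKM + 1) from the median MCM gene over the 2 libraries. The nearest was HPODL_01493, of the ribosomal protein S4 family (COG0522), at 74.3 RPKM with caffeine and 28.1 RPKM without, a distance of 0.02. It was followed by an amidase (COG0154, HPODL_02404) at 0.18 and a purine nucleoside phosphorylase (COG0005, HPODL_03524) at 0.19. An Elp3-type gene (COG1243, HPODL_00488) and an Imp4-type gene (COG2136, HPODL_03316) were both at a distance of 0.20. The MCM genes themselves lay 0.15 to 2.26 from their own median. None of the 5 nearest genes was in the replication list (39 genes) or in the histone, SMC, cyclin and mismatch repair lists (27 genes). The distance is taken over both libraries, so it carries the fold that was in view when the group was picked. Nothing is read from that absence.

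No MCM gene neighboured another in the RefSeq gene order, and none overlapped with the gene on either side. The gaps to the 12 neighbours ran from 8 to 665 bases. Of 11 compared neighbours 6 were above 0 and 5 below, with a median log2 fold of 0.05, beside 51.1% of all compared genes above 0. Of the 11 neighbours 2 passed the 2-fold rule as higher and 2 as lower, beside 7.12% and 5.27% of all compared genes.

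The gene before HPODL_01197, 21 bases away, is of the aminopeptidase N group (COG0308, HPODL_01196). It had 8848 caffeine-treated and 3729 untreated reads, a log2 fold of 1.14 (1.08 to 1.19), beside 1.03 for the MCM gene. On the other side, 437 bases away, HPODL_01198 stood at -1.53 (-1.75 to -1.30). Whether reads that reach across so short a gap were shared between HPODL_01196 and HPODL_01197 was not tested.

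The gene after HPODL_03794, HPODL_03795 at 226 bases, had 2380 caffeine-treated and 599 untreated reads. Its log2 fold of 1.88 (1.75 to 2.01) was higher than that of the MCM gene, 0.93. The gene before HPODL_03794, of the Xaa-Pro aminopeptidase group (COG0006, HPODL_03793) and 9 bases away, stood at 0.54 (0.46 to 0.63).

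The leading MCM genes had higher log2 folds than the genes on either side. They were singled out for their high folds, so nothing is read from that difference. Beside HPODL_00647, HPODL_00646 (COG0534, the MATE transporter group) was at 0.05 (-0.06 to 0.17) and HPODL_00648 at 0.34 (0.12 to 0.57). Beside HPODL_04666, HPODL_04665 was at 0.54 (0.43 to 0.66). HPODL_04667, with 146 caffeine-treated and 162 untreated reads, did not pass the filter and stood at -0.26 (-0.59 to 0.07).

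Around the genes with the smallest folds all 4 neighbours were below 0, as were 2379 of all 4861 compared genes. These 4 were singled out after their values were seen, so nothing is read from their shared direction. HPODL_03181 lay between HPODL_03180 (COG0558, a phospholipid synthesis group) at -0.32 (-0.44 to -0.20) and HPODL_03182 (COG1215, a glycosyltransferase group) at -1.21 (-1.39 to -1.03). HPODL_04438 lay between HPODL_04437 at -0.25 (-0.35 to -0.14) and HPODL_04439 (COG5054, the Erv1 group) at -0.53 (-0.85 to -0.21). With library totals all 4 stayed below 0, and HPODL_03182 came to -0.99, inside 2-fold.

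**Figure D5:**
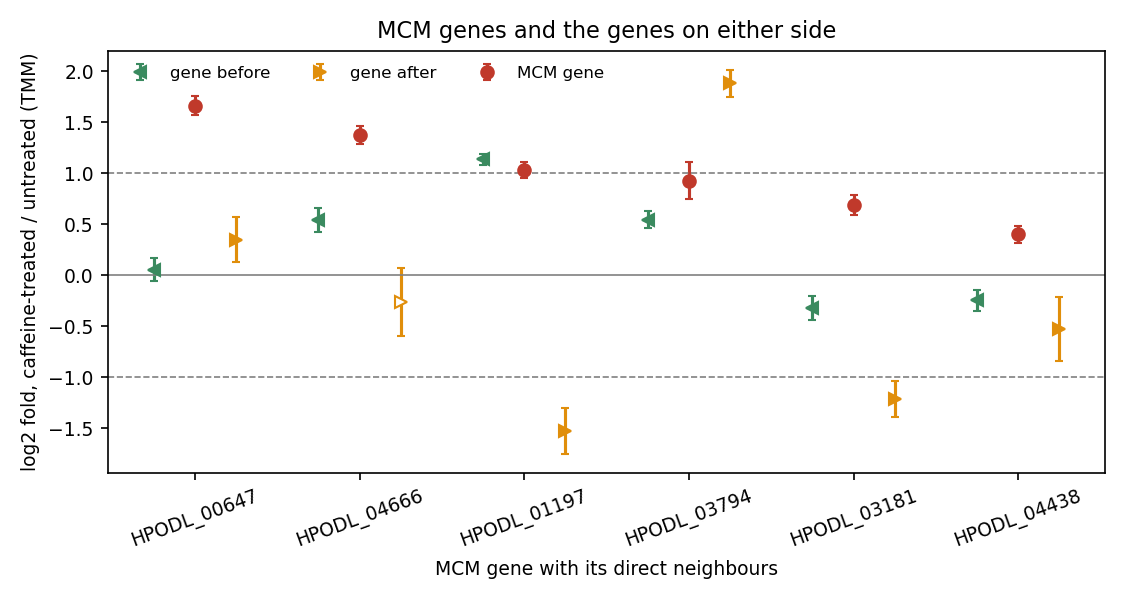
Log2 fold of caffeine-treated over untreated, TMM-scaled (vertical axis), of each MCM gene and of the gene on either side in RefSeq order (horizontal axis), with exact 95% counting intervals. The open mark is a gene that did not pass the filter. HPODL_03795 and HPODL_01196 are the neighbours that lie above their MCM gene.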

How the data were processed

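RNA from 2 parts of a yeast culture was made into stranded mRNA libraries and read from both ends (100 bases, Illumina), per the labels' protocols. Bowtie2 was used per the submitters' processing notes, and not given in the sources used here are its version, the counting tool, the build and the use of strand. The authors deposited raw counts of reads for each gene, RPKM, and counts scaled by RLE and by TMM, a signal equal to the count times 1 constant per library (0.964 caffeine-treated and 1.039 untreated for TMM) within a tolerance of 0.01 in all 5408 rows. The strand column holds + for every row and the contig column is empty, so no strand or chromosome is given for the listed starts and ends. The 83 RNA features had 0 reads.

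TMM factors came from edgeR 4.0.16 (R 4.3.3), giving effective totals of 19186646 caffeine-treated and 17788292 untreated reads. edgeR and DESeq2 tests were not run, because 1 library per group leaves no residual degrees of freedom. Genes with at least 10 CPM of the library total in either library were compared. A count of 0 was set to a floor of 3 counts. Fold intervals were computed from the binomial share (Clopper-Pearson) of each gene's reads that fell in the caffeine-treated library, and level intervals are Poisson. Both assume independent reads, which PCR copies without molecular identifiers are not. The calculation was tested on simulated counts.

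The members and lists were chosen with earlier results of these data known. The text names every MCM gene, the highest and lowest gene of each replication role and of each companion group (chromosome structure, cell cycle and repair) except 1 that is not reported here, the 5 nearest genes by level, and the direct neighbours. What each COG does was taken from general knowledge, and a COG can hold several proteins. Gene order came from the RefSeq table of assembly Hansenula_2, which matched all 5408 locus tags. The alternatives were library totals, RLE, other filters, 5 CPM added, deposited RPKM, and 1.5-fold and 4-fold rules.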

Additional observations from a re-analysis of the deposited data

How the results depend on the processing

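Each of the 6 MCM genes stayed above 0 under every scaling, filter and added count tried. Library totals moved the log2 folds to 1.88 for HPODL_00647, 1.59 for HPODL_04666, 1.25 for HPODL_01197, 1.15 for HPODL_03794, 0.90 for HPODL_03181 and 0.62 for HPODL_04438, a constant shift by construction. The deposited RPKM gave 1.88 for HPODL_00647, 1.59 for HPODL_04666, 1.25 for HPODL_01197, 1.14 for HPODL_03794, 0.90 for HPODL_03181 and 0.62 for HPODL_04438. The MCM median was 1.20 with library totals and 1.19 with RPKM, that of the replication list 0.13 under both, and that of all compared genes 0.23 and 0.22. At 1.5-fold, 5 MCM genes were higher, 1 replication gene was higher and 7 were lower, beside 804 higher and 630 lower of all compared genes. At 4-fold, 0 MCM genes were higher, beside 67 higher and 50 lower of all compared genes. Library totals made 564 compared genes at least 2-fold higher, and RPKM made 553. Of the other 74 of 102 alternative values, log2 folds and medians moved by less than the counting interval and counts by at most 1.5 times. No paired analysis was possible because each group holds 1 library. For the same reason no library could be left out. Depth limits HPODL_03794 most, with an interval of 0.18 log2 units to either side.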
